A study of Mus musculus with 21 samples.

Results

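Late-passage chemically induced liver progenitors (CLiPs) were compared after 8 days with and without hepatic induction. CLiPs are proliferating, progenitor-like cells obtained in culture from mouse hepatocytes, and hepatic induction here means culture with oncostatin M and dexamethasone. The comparison took in 6 of the 21 arrays of the series, chosen by their titles: 3 of late induced CLiPs and 3 of late uninduced CLiPs, both at day 8. In each group replicates 1 and 2 were at passage 12 and replicate 3 at passage 11. All cells came from female C57BL/6 mice with no altered allele named in the labels, and the uninduced cells had neither factor. The factors were always given together, so the share of each cannot be told apart. The remaining arrays were 3 of late CLiPs at day 0, 9 of passage 1 (P1) CLiPs (3 at day 0, 3 induced and 3 uninduced at day 8) and 3 of fresh hepatocytes. The question was how cells that had been passaged 11 to 12 times respond to a maturation stimulus.

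Each array reports one-colour signals. A level here is the log2 signal of a gene's probe minus the 75th percentile of all probes on that array, so 0 means a signal at that percentile. Changes are induced minus uninduced, on the log2 scale, with standard errors (SE) from limma. A gene was called higher or lower at an adjusted p (Benjamini-Hochberg, over all tested genes) below 0.05 together with a change of 2-fold or more. Of 37074 gene names on the array, 20752 were well above background on all 3 arrays of at least 1 group and were tested. Where a gene was not well above background on any array of a group, its fold is given as "at least", from the lowest signal measured above background there. Levels of different genes come from different probes and are not compared with each other.

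Oncostatin M is a cytokine of the interleukin-6 family, made in fetal liver by blood-forming cells. It binds the receptor chains OSMR and gp130 (gene Il6st), which act through JAK kinases and the transcription factor STAT3, and SOCS3 is the feedback inhibitor of this pathway. Dexamethasone is a synthetic steroid that activates the glucocorticoid receptor (gene Nr3c1), a nuclear receptor that binds palindromic DNA elements. Together the factors are known to mature fetal hepatocytes, to induce acute-phase proteins and to restrain inflammatory genes.

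Induction changed 1252 genes, 6.03% of those tested. Among these 622 were higher (3.00%) and 630 lower (3.04%) in induced CLiPs, and the median change of all tested genes was 0.045. Protease inhibitors of the Serpina3 family, the decoy receptor gene Il1r2 and part of the known targets of both added factors rose, while most chemokines tested, and part of the mitotic genes and of the targets of the YAP and TEAD regulators, fell. The groups did not overlap for 7695 genes (37.1%), and for 1249 of the called ones. In the plot of all tested genes the called ones lay on both sides of the diagonal over the whole range of signal. With the replicate number as a block 695 genes were higher (3.35%) and 709 lower (3.42%), and 1243 genes were called in both fits. Of the 1252 called genes, 793 were called again in each of the 6 fits that left out 1 day-8 array.

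**Figure D1:**
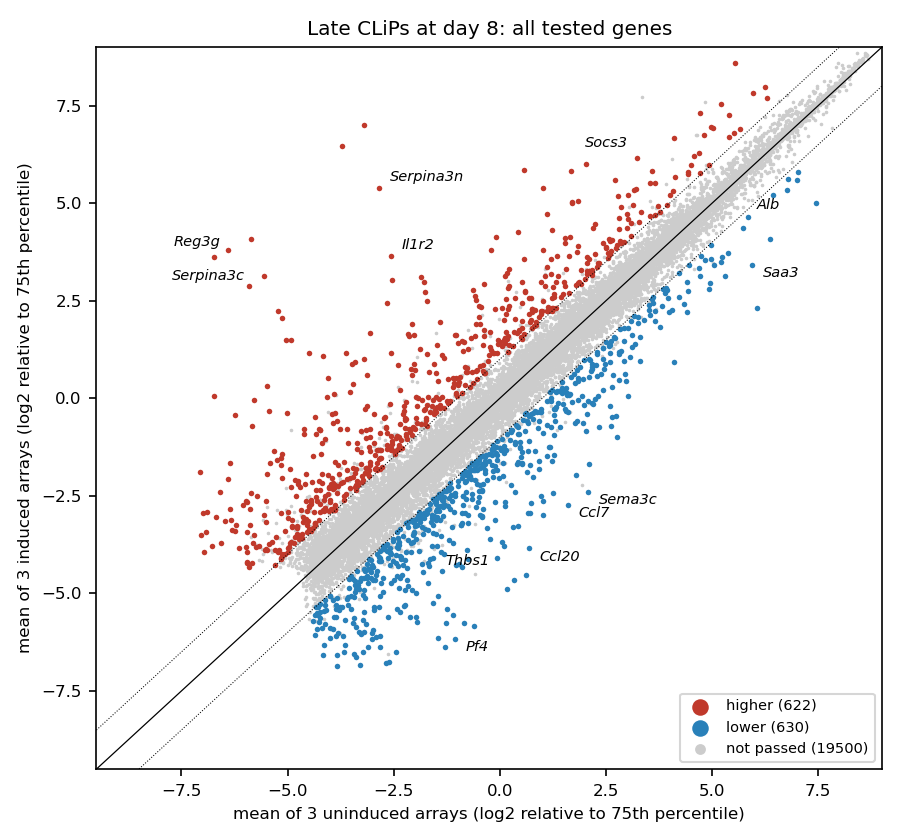
Each point is a tested gene, with the mean level of 3 late uninduced arrays on the x axis and of 3 late induced arrays on the y axis (log2 relative to the 75th percentile of the array). Red and blue points are the 622 genes higher and the 630 genes lower in induced CLiPs, grey points the 19500 that did not pass. The solid line marks equal means and the dotted lines 2-fold differences.

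The arrays were alike in depth. The signal at the 75th percentile was 881 to 1110 on induced and 1080 to 1170 on uninduced arrays. Between 56.6% and 60.5% of probes per array stood well above background. Pairwise correlations of levels were 0.982 to 0.992 within induced arrays, 0.989 to 0.991 within uninduced arrays and 0.959 to 0.974 between the groups. Induced replicate 3 was on a slide and in a scan of its own, while the other 8 late arrays shared a slide. Without it, which is also the comparison within that slide, 632 genes were higher and 620 lower. The arrays came from whole cultures, in which fewer cells of a type and less RNA per cell cannot be told apart.

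The labelled cells had genes of their origin, though not all of them. Albumin (Alb), transthyretin (Ttr) and the hepatocyte regulator Hnf4a were well above background on all 6 arrays, as were the biliary and progenitor genes Krt19, Krt7, Sox9 and Spp1. The progenitor gene Epcam was above background on 2 of 3 induced arrays. Among hepatocyte genes on the array, 1 of 27 secreted protein and 7 of 31 phase I drug metabolism genes were never above background. The same held for 5 of 32 urea cycle and amino acid genes. Markers of other liver cells were absent in part. Of the markers on the array, 7 of 12 endothelial, 7 of 15 Kupffer cell and macrophage, 8 of 14 stellate cell and fibroblast, 3 of 10 lymphocyte and 3 of 7 mesothelial genes were above background on none of the 6 arrays. The summed signal of the Kupffer list, in multiples of the 75th percentile, was 10.5 to 12.1 on induced and 14.1 to 18.7 on uninduced arrays. That of the endothelial list was 3.13 to 7.76 on induced and 2.33 to 4.41 on uninduced arrays, and that of the stellate list 0.495 to 0.678 and 0.454 to 0.518. The mesothelial list summed to 5.04 to 11.7 on induced and 3.1 to 34.2 on uninduced arrays, and the lymphocyte list to 4.69 to 5.12 and 3.42 to 3.88. In the Kupffer list the adaptor gene Tyrobp rose (3.43, SE 0.68), with 2 of 3 uninduced arrays above background. The macrophage growth factor receptor gene Csf1r fell (-1.32, SE 0.22), but its second probe changed by only -0.13, and it was not called with the mean of all probes (-0.73) or on passage 12 arrays alone (-1.25, adjusted p = 0.0641). The stellate list had 1 of 4 tested genes higher, the matrix gene Dcn (3.22, SE 0.60), and 1 lower. Only 1 of 3 uninduced arrays had Dcn above background, so the size of its change is not well measured. The part of such cells in the results below was not tested.

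Large increases were seen in the Serpina3 family, secreted serine protease inhibitors that belong to the acute-phase response. Serpina3n stood at 5.67, 5.90 and 4.62 on induced arrays, against -1.60, -3.16 and -3.77 on uninduced arrays. Its change was 8.24 (SE 0.54, adjusted p = 0.000117), and the groups were far apart. Serpina3c reached 3.44, 3.71 and 3.74 on induced arrays and was not well above background on any uninduced array, where its values were -6.53, -6.80 and -6.89. It was at least 336-fold higher with induction. Its adjusted p in limma (7.87e-09) rests on these background values without induction and does not belong to the bound. Serpina3m was at 6.70, 6.72 and 7.54 on induced arrays and at -2.00, -4.63 and -2.98 on uninduced arrays, where 2 of 3 measured it above background. Serpina3j was at least 198-fold higher, and Serpina3k and Serpina3f rose too. Serpina3k was at 3.40, 2.89 and 5.92 on induced arrays and at -4.30, -6.90 and -6.36 on uninduced arrays, of which only 1 had it above background, so the size of its change is not well measured. Serpina3f changed by 5.66 (SE 0.35), with 2 of 3 uninduced arrays above background, and by 4.18 on a second probe. These genes are close relatives, and whether their probes bind each other's transcripts was not tested.

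The promoters of Serpina3n and Serpina3c are shown because both genes stood among the most changed and share a palindrome of the form bound by the glucocorticoid receptor. The sequences are from RefSeq on GRCm38.p6 and run 5′ to 3′ along the gene, from 250 bases before to 50 bases after its start, with the matched letters in capitals (GNACA, any 3 bases, TGTNC). Serpina3n lies on the plus strand (chr12:104406458-104406757) and Serpina3c on the minus strand (chr12:104153823-104154122).
Serpina3n: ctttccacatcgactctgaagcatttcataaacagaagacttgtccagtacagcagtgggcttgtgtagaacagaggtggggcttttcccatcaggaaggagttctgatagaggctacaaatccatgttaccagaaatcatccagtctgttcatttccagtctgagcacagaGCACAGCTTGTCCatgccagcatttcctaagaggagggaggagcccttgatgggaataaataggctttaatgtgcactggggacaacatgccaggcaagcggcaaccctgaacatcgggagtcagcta
Serpina3c: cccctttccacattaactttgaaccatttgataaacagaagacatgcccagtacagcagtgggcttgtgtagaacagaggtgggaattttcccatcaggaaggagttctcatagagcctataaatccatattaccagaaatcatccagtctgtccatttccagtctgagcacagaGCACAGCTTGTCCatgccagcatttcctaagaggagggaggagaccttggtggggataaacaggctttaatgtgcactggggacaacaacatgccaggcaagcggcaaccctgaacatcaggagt
The match begins at position -78 in Serpina3n and at -75 in Serpina3c, counted from the start of the gene. Shifted by 3 bases, the promoters were identical at 249 of 297 positions (83.8%). Both also hold AGAACA, one arm of such a site, at -183 and -180, and that of Serpina3n the NF-kB letters (GGG, any 2 bases, TTTCC) at -171.

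The letters of 6 motifs were searched on both strands in all 32851 promoters of the table, which named 11551 of the tested genes, 375 of the 622 higher and 382 of the 630 lower ones. A gene was counted if any of its promoters matched, while the share of all promoters is per promoter. The receptor palindrome was in promoters of 10 of 375 higher genes (2.67%) and of 0 of 382 lower genes. Its background was 0.43% of tested genes and 0.47% of all promoters. The short site AGAACA was in 20.8% of higher and 16.23% of lower genes, against 15.81% of tested genes and 18.97% of all promoters. The STAT letters TTCNNNGAA were in 11.47% of higher and 9.69% of lower genes, against 8.60% of tested genes and 8.30% of all promoters. The C/EBP letters TTGCNNAA were in 15.73% and 12.83%, against 10.89% and 10.80%. The NF-kB letters were in 1.87% of higher and 3.93% of lower genes, against 2.02% of tested genes and 1.63% of all promoters. The AP-1 letters TGANTCA were in 8.80% and 10.73%, against 6.75% and 7.81%. The share in lower genes for AGAACA and that in higher genes for NF-kB thus lay between both backgrounds. The letters were chosen with the results known, some matches of one set overlap those of another, and the shares are a description with no test. Related genes were counted separately, and the 10 higher genes with the palindrome include Serpina3n and Serpina3c, whose promoters are 83.8% identical to each other.

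Beyond the Serpina3 family, other genes of defence and of hormone sensing led the increases. Il1r2, a decoy receptor that binds interleukin-1 without signalling, was at 3.53, 3.41 and 4.02 on induced arrays, against -3.13, -3.09 and -1.47 on uninduced arrays (change 6.22, SE 0.41, adjusted p = 0.000131). The secreted lectin genes Reg3g and Reg1 were at least 375-fold and at least 238-fold higher, each above background on all 3 induced arrays and on no uninduced array. The receptor genes Adra2a for catecholamines (4.79, SE 0.20) and Avpr1a for vasopressin (4.76, SE 0.38) rose, and S1pr1 for sphingosine 1-phosphate was at least 21.7-fold higher. Others among the highest genes measured in both groups were Glod5 (5.57), Tmem45a (5.08), Itih3 (4.96), Paqr9 (4.73), F830014O18Rik (4.58), Diras2 (4.47) and the collagen gene Col6a1 (4.36). The unannotated gene Gm32894 was at least 28.25-fold higher. Of these, Itih3 and Paqr9 spread widely among induced arrays, at 2.53, 1.35 and 5.41 for Itih3 and at 1.57, -0.23 and 3.66 for Paqr9, with replicate 3 highest in both.

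Some targets of oncostatin M rose. Socs3 was at 6.18, 5.98 and 6.33 on induced arrays, against 3.40, 2.85 and 3.45 on uninduced arrays (change 2.93, SE 0.20, adjusted p = 0.000153). Of the 14 tested feedback and early target genes, 4 rose and none fell (median 0.48): Socs3, the interleukin-4 receptor gene Il4ra (2.27, SE 0.25), the metalloproteinase inhibitor gene Timp1 (1.45, SE 0.14) and the kinase gene Pim3 (1.31, SE 0.12). All 4 were called in each fit without 1 array. Bcl3 (0.81, adjusted p = 0.0152) stayed under 2-fold, and Cish (0.60), Socs1 (0.36) and Junb (0.16) did not pass. Of the 12 tested genes of the receptors and their signalling, 1 rose, the receptor chain Osmr.

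Osmr was at 4.88, 4.64 and 4.58 with induction and at 3.94, 3.52 and 3.51 without it (change 1.04, SE 0.22, adjusted p = 0.0134), and the groups did not overlap, but the change was close to 2-fold. It fell below the threshold under normexp background correction (0.995), quantile normalization (0.97) and the mean of all probes (0.93), without induced replicate 1 (0.95), without uninduced replicate 2 (0.98) and, with an adjusted p of 0.0501, without uninduced replicate 3 (0.97). Il6st, the shared chain gp130, was at 2.62, 2.54 and 1.65 on induced arrays and at 1.99, 1.88 and 1.96 on uninduced arrays, overlapping ranges. Stat3 was slightly higher on every induced array (0.40, SE 0.08, adjusted p = 0.0106) by its brightest probe, under 2-fold. Its 3 measured probes ranged from -0.30 to 0.40, and their mean gave 0.12 (adjusted p = 0.725).

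The promoters of Socs3 and Il1r2 are shown for their STAT letters TTCNNNGAA, and that of the fibrinogen chain Fgb for its STAT and C/EBP letters, all in capitals. They lie at chr11:117969317-117969616 (Socs3, minus strand), chr1:40085843-40086142 (Il1r2, plus strand) and chr3:83049814-83050113 (Fgb, minus strand) on GRCm38.p6.
Socs3: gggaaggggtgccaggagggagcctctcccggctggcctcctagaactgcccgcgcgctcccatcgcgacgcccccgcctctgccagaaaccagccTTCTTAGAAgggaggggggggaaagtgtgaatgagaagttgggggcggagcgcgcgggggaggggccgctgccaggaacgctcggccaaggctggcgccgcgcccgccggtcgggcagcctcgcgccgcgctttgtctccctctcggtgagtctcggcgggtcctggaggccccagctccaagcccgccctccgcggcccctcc
Il1r2: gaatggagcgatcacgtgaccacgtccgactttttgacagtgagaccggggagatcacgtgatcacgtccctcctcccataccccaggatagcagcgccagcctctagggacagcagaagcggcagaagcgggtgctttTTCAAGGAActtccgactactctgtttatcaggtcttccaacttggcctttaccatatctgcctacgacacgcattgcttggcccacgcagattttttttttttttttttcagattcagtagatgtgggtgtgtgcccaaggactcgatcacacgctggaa
Fgb: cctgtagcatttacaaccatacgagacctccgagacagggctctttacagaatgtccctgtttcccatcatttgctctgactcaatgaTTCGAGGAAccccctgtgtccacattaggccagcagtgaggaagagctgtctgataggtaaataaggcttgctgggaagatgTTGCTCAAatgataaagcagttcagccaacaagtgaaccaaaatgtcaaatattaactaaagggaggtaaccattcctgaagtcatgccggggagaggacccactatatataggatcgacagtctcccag
The STAT letters begin at -154 in Socs3, -111 in Il1r2 and -162 in Fgb, where the C/EBP letters begin at -80. A match of letters does not show binding.

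Of 19 tested glucocorticoid targets 9 rose and none fell (median 1.03, against 0.045 over all tested genes). All 9 were called in each fit without 1 array. Fkbp5, a co-chaperone of the receptor, was at 5.33, 5.13 and 5.15 with induction and at 3.26, 3.08 and 2.70 without it (change 2.19, SE 0.14, adjusted p = 0.000117). Sgk1, a kinase of salt handling, changed by 2.61 (SE 0.16) and the transcriptional repressor Zbtb16 by 2.29 (SE 0.40). Tsc22d3, an anti-inflammatory mediator also called GILZ, was at 6.34, 6.30 and 6.22 on induced arrays and at 4.71, 4.75 and 4.60 on uninduced arrays, a change of 1.60 (SE 0.12) with little spread. The kinase gene Pdk4 (2.07), the transcription factor genes Klf9 (1.97) and Klf15 (1.44), the receptor inhibitor gene Errfi1 (1.64) and the growth inhibitor gene Ddit4 (1.28) were the other members that rose. In contrast Tat, the liver's tyrosine aminotransferase and a classical target, was at -2.43, -2.32 and -2.51 on induced and at -2.66, -2.61 and -2.60 on uninduced arrays (change 0.20, SE 0.08, adjusted p = 0.109). The receptor gene Nr3c1 (0.16, SE 0.10) did not pass, and of the 6 tested receptor and co-chaperone genes none did.

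**Figure D2:**
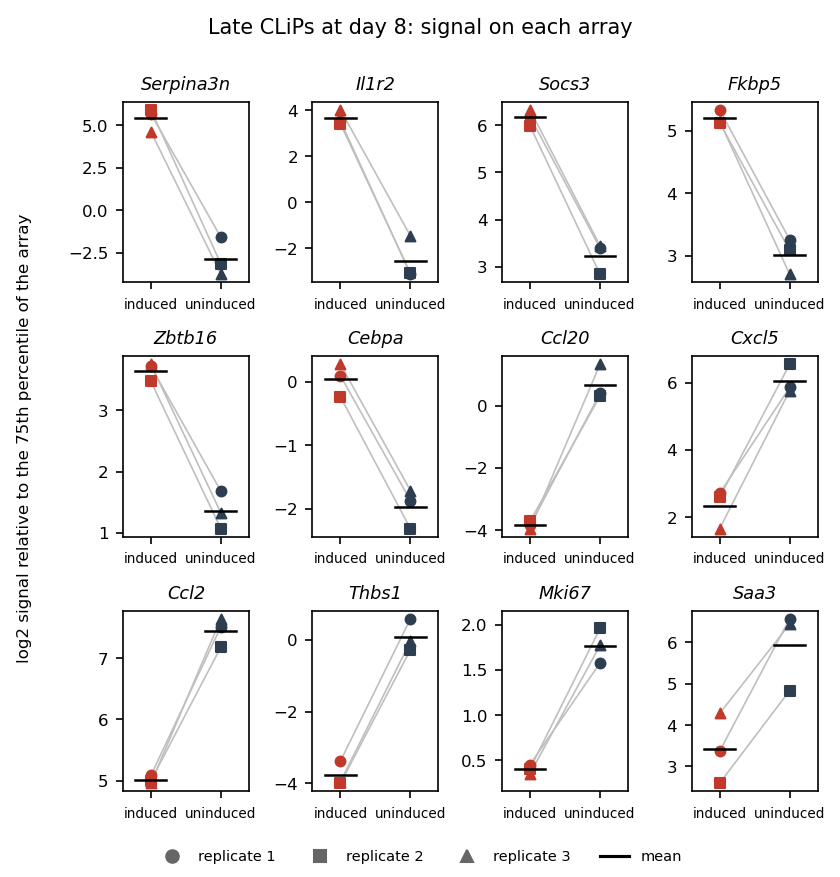
Each panel plots the level of a gene (y axis, log2 signal relative to the 75th percentile of the array, own range per panel) on 3 late induced arrays (left, red) and 3 late uninduced arrays (right, dark). Symbols mark the replicate numbers, grey lines join equal numbers and black bars are means. In all 12 genes shown the groups did not overlap, with 6 higher and 6 lower with induction.

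Acute-phase genes, whose proteins the liver secretes in inflammation, rose in 11 of 26 tested cases and fell in 1 (median 2.31, or 2.06 with genes not above background in a group set to their bounds). Members such as Serpina3c were tested only through the induced group, where they are high. When a gene had to be well above background on all 6 arrays, 6 of 20 rose and 1 fell. In the fit with the replicate number as a block 12 rose, with the haptoglobin gene Hp and the fibrinogen chain Fgg gained and the pentraxin gene Apcs (adjusted p = 0.0562) lost. Without 1 array Apcs stayed called only when induced replicate 2 was left out, with changes of 1.13 to 1.72 in the other 5 fits. The fibrinogen chain Fgb was at 8.49, 8.54 and 8.71 with induction and at 5.69, 4.51 and 6.40 without it, and Fga changed by 2.78 (SE 0.61), a call lost without uninduced replicate 2 (2.35, adjusted p = 0.055). The C-reactive protein gene Crp rose by 1.62 (SE 0.26), and the broad protease inhibitor A2m was at least 3.06-fold higher. Not all members moved this way. Saa3, a serum amyloid gene, was lower on every induced array, at 3.37, 2.60 and 4.28, against 6.57, 4.83 and 6.44 on uninduced arrays (change -2.53, SE 0.53, adjusted p = 0.0133). Its relatives Saa1 (-1.23, SE 0.64) and Saa2 (2.00) did not pass, though Saa2 did without induced replicate 2 (3.06, adjusted p = 0.0487). Lcn2, another acute-phase gene, was at 7.76, 8.00 and 7.72 on induced and at 7.97, 7.89 and 7.56 on uninduced arrays.

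Complement and clotting genes changed in a few members each. Of 15 tested complement genes 3 rose, among them genes of inhibitors of the cascade, the C1 inhibitor gene Serping1 (3.83, SE 0.27) and the C4b-binding protein gene C4bp (3.28, SE 0.52). Of 15 tested coagulation genes 2 rose. The anticoagulant Pros1, protein S, was at 5.58, 5.38 and 5.11 with induction and at 3.43, 2.91 and 3.27 without it. Vtn, vitronectin, had a larger but unsteady change (3.06, SE 0.89, adjusted p = 0.0458). Its call was lost without induced replicate 1 (3.34) or 3 (2.14) and without uninduced replicate 2 (2.32) or 3 (3.26), with adjusted p-values up to 0.125.

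Most genes of the hepatocyte's own secreted and metabolic program did not pass. The same held for all tested genes, of which 3.00% were higher and 3.04% lower. Albumin, the main plasma protein, was at 5.13, 3.22 and 7.45 on induced arrays, against 6.09, 4.59 and 6.60 on uninduced arrays. The ranges overlapped, and the change of -0.49 had an SE of 1.25. Of 23 tested secreted proteins 1 rose, the apolipoprotein gene Apoh (3.22, SE 0.82, adjusted p = 0.0299). It was lost without induced replicate 1 (3.28) or 3 (2.79) and without uninduced replicate 2 (2.42), with adjusted p-values up to 0.0732. Ttr was higher on every induced array, at 7.05, 7.26 and 7.48, against 6.39, 6.62 and 6.31, but stayed under 2-fold (0.82, adjusted p = 0.13).

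Drug metabolism changed in both directions. Of 19 tested phase I genes 7 rose and none fell (median 1.53), and without uninduced replicate 3 the count was 4. Cyp2a5, an enzyme of coumarin oxidation, was at 0.48, 0.79 and 1.37 with induction and at -3.59, -3.81 and -3.02 without it (change 4.35, SE 0.27, adjusted p = 9.57e-05). Its near-identical relative Cyp2a4 changed by 4.11 (SE 0.25), and a probe may not tell the pair apart. The Cyp2d genes Cyp2d26 (2.39), Cyp2d10 (2.66), Cyp2d9 (2.78) and Cyp2d22 (1.62) rose, of which Cyp2d26 was called in all 6 fits without 1 array. Without uninduced replicate 3 the calls of Cyp2d10 (2.66), Cyp2d9 (2.65) and Cyp2d22 (1.36) were lost. Those of Cyp2d10 (2.59) and Cyp2d9 (2.66) were also lost without uninduced replicate 2 and those of Cyp2d9 (3.01) and Cyp2d22 (1.64) without uninduced replicate 1. Cyp2d22 was lost without induced replicate 1 (1.71) or 2 (1.44) too. Cyp3a11, the main steroid- and drug-oxidizing P450 of its family, was at -2.42, -3.92 and 0.12 on induced and at -3.31, -4.08 and -3.89 on uninduced arrays. Its change of 1.69 had an SE of 0.84, and it passed only without induced replicate 2 (2.61, adjusted p = 0.0412). Of 19 tested phase II genes 2 rose, with the sulfotransferase Sult1a1 at 3.63 (SE 0.63), and 5 fell, mostly glutathione transferases. Gsta4 was at -0.09, -0.40 and -0.73 with induction and at 2.06, 2.17 and 1.95 without it, and Gstt1 changed by -1.78 (SE 0.25). The number of lower phase II genes was 3 without induced replicate 1, induced replicate 2 or uninduced replicate 3.

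Few genes of nitrogen, sugar and lipid metabolism passed, in a comparison that called 6.03% of all tested genes. In the urea cycle and amino acid list 1 of 22 rose, the glutamine synthetase gene Glul, at 3.22, 3.13 and 3.04 on induced arrays against 1.33, 0.76 and 1.09 on uninduced arrays. The entry enzyme of the urea cycle, Cps1, above background on 1 of 3 uninduced arrays, changed by 1.47 (SE 0.46, adjusted p = 0.0584), and passed without induced replicate 2 (1.89, adjusted p = 0.0289). Of 13 tested genes of gluconeogenesis, glycogen and sugar metabolism 3 rose. The glucose-6-phosphate transporter Slc37a4 (1.86, SE 0.19, and 0.86 on a second probe) was called in all 6 fits without 1 array. The count of higher genes in the list was 1 without induced replicate 1 or uninduced replicate 1 or 2, and 5 without induced replicate 2. G6pc, the last step of glucose release, was at 0.93, 0.26 and 3.85 with induction and at -1.54, -3.10 and 0.16 without it. Its change of 3.18 (SE 1.04, adjusted p = 0.067) passed with the replicate block (adjusted p = 0.0102), and without uninduced replicate 3 (4.01, adjusted p = 0.0485). Pck1 was not above background on all arrays of either group and was not tested. None of 19 fatty acid oxidation genes passed (median 0.43), against 1 of 18 fatty acid synthesis genes, the desaturase Scd1 (1.92, SE 0.29), and 1 of 23 cholesterol synthesis genes. The bile acid list had 1 of 10 higher, the bile acid receptor Nr1h4 (1.40, SE 0.19, and 0.905 on a second probe).

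Among 23 tested hepatocyte transcription factors 4 rose and none fell (median 0.52), and with the replicate block 6 rose, gaining the xenobiotic receptor Nr1i2 and Creb3l3. Cebpa, a driver of hepatocyte differentiation, was at 0.09, -0.24 and 0.27 on induced arrays, against -1.87, -2.32 and -1.72 on uninduced arrays (change 2.01, SE 0.30, adjusted p = 0.00344). The nuclear receptor partner Rxra (1.55, SE 0.16) rose with Nr1h4. Prox1, a regulator of early liver cells, also rose (1.28, SE 0.31, adjusted p = 0.0233), a call lost without induced replicate 1 (1.21) or 3 (1.21) and uninduced replicate 2 (1.04) or 3 (1.28). Hnf4a was at 4.55, 4.90 and 5.93 with induction and at 4.45, 4.73 and 4.89 without it. It did not pass, and the ranges overlapped.

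Replicate numbers carried much of the spread in these genes. Replicate 3 had the highest level of the 3 induced arrays in 18 of 23 secreted protein genes (78.3%) and in 13 of 15 coagulation genes (86.7%), against 28.2% of all tested genes. Among uninduced arrays it was highest in 15 of 23 (65.2%) and 10 of 15 (66.7%), against 27.3% of all tested genes. The prothrombin gene F2 was at 2.38, 0.69 and 5.80 on induced and at 2.07, -0.77 and 4.20 on uninduced arrays. In both groups replicate 2 was lowest and replicate 3 highest. The acute-phase gene Orm1 was at 1.25, -0.42 and 4.40 with induction and at -0.13, -2.93 and 0.78 without it, higher in each pair (2.50) but with an SE of 1.28. Replicate 3 was the passage 11 sample in both groups, and its induced array was the one on the other slide. Its uninduced array shared a slide with the other late arrays. Passage and culture cannot be told apart for replicate 3, and for its induced array slide cannot either.

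**Figure D3:**
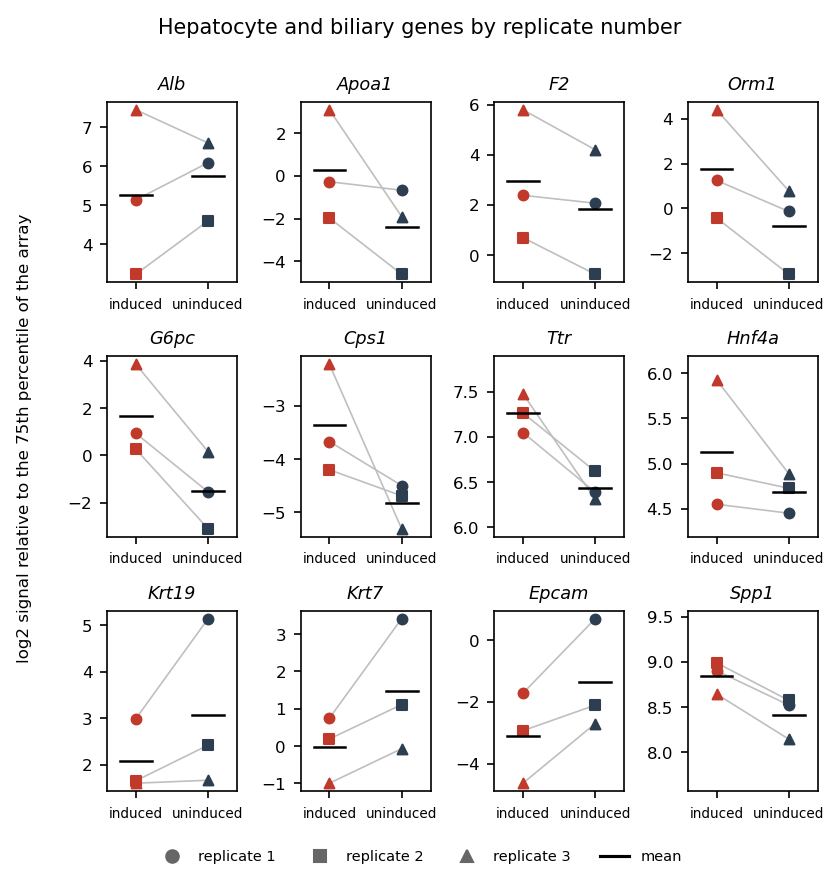
Each panel plots the level of a hepatocyte gene (upper 2 rows) or a biliary or progenitor gene (lower row) on 3 late induced arrays (left, red) and 3 late uninduced arrays (right, dark), as log2 signal relative to the 75th percentile of the array, with its own range per panel. Symbols mark replicate numbers, grey lines join equal numbers and black bars are means. Alb and F2 are lowest in replicate 2 and highest in replicate 3 of both groups, and Krt7 and Epcam highest in replicate 1 and lowest in replicate 3.

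Biliary and progenitor genes were lower in part, and how many passed depended on the replicate numbers. Of 24 tested genes 1 rose and 4 fell (median -0.97), while 11 fell with the replicate block. Krt7, Epcam, Krt23, Cldn4, Cldn7 and Aqp1 were among the genes that the block added. Krt7, a bile duct keratin, was at 0.75, 0.19 and -0.99 on induced arrays, against 3.41, 1.11 and -0.07 on uninduced arrays. It was lower in each pair (-1.50, SE 0.92), with an adjusted p of 0.297 and, with the block, of 0.0396. Epcam, an adhesion protein of progenitors, changed by -1.72 (SE 0.98, adjusted p = 0.261, or 0.0364 with the block). Krt19 was at 2.99, 1.65 and 1.60 with induction and at 5.14, 2.42 and 1.67 without it (change -0.99, SE 0.81), and did not pass in either fit. The hyaluronan receptor Cd44 was at 3.49, 3.76 and 3.36 on induced arrays and at 4.65, 5.10 and 4.76 on uninduced arrays, and it was called in all 6 fits without 1 array. So was the stem cell receptor Lgr5, which rose (1.35, SE 0.23), though by only 0.91 on a second probe. The number of lower genes in the list was 1 without uninduced replicate 1 and 2 without induced replicate 3 or uninduced replicate 2. Sox9 (0.17, SE 0.20) and Spp1 (0.43, SE 0.14) did not pass.

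Of the fetal and imprinted genes, 15 tested, Igf2 rose and Afp fell. Igf2, a fetal growth factor, was at 3.44, 3.86 and 3.42 on induced arrays and at 1.90, -0.49 and 0.29 on uninduced arrays. Afp, the fetal counterpart of albumin, was at 2.67, 3.99 and 3.34 with induction and at 4.80, 3.96 and 5.28 without it. Its groups overlapped, and its change of -1.35 (SE 0.39, adjusted p = 0.0452) was not called with the replicate block (adjusted p = 0.058). It was also lost without induced replicate 1 (-1.01) or 3 (-1.35) and without uninduced replicate 1 (-1.29) or 3 (-1.05).

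Chemokines and inflammatory cytokines had the lowest median of the lists shown, with 14 of 19 tested genes lower and 1 higher (median -2.15). Of the 15 called members 12 were called in all 6 fits without 1 array. Ccl20, which attracts lymphocytes and dendritic cells, was at -3.85, -3.72 and -3.96 on induced arrays, against 0.39, 0.31 and 1.33 on uninduced arrays (change -4.52, SE 0.47, adjusted p = 0.000742). Cxcl5, a neutrophil chemokine, was at 2.71, 2.60 and 1.66 with induction and at 5.86, 6.55 and 5.76 without it. The monocyte attractants Ccl2 (-2.44, SE 0.17) and Ccl7 (-4.34, SE 0.52) fell, as did the neutrophil attractants Cxcl1 (-2.14, SE 0.20) and Cxcl2 (-2.33, SE 0.26), with no overlap in any of these. Cxcl16 (-3.07) and Cx3cl1 (-1.95), chemokines made as membrane proteins, and the growth factor gene Csf1 (-1.01) fell too. Csf1 came under 2-fold without induced replicate 3 (-0.96) or uninduced replicate 1 (-0.98), and Csf2 was at least 4.28-fold lower. Cxcl12, a chemokine of stromal cells, went the other way, at -0.40, -1.69 and -0.25 on induced arrays and -3.49, -4.68 and -4.62 on uninduced arrays, where 2 of 3 measured it.

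The promoters of Ccl20 and Cxcl1 are shown as those of lower chemokines that hold the NF-kB letters, here in capitals. They lie on the plus strand at chr1:83116516-83116815 (Ccl20) and chr5:90890995-90891294 (Cxcl1) on GRCm38.p6.
Ccl20: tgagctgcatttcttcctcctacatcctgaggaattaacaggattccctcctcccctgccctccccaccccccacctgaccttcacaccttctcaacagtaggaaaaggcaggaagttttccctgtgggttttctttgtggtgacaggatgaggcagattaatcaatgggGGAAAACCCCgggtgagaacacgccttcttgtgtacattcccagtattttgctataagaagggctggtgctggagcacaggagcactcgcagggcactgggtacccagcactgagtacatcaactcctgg
Cxcl1: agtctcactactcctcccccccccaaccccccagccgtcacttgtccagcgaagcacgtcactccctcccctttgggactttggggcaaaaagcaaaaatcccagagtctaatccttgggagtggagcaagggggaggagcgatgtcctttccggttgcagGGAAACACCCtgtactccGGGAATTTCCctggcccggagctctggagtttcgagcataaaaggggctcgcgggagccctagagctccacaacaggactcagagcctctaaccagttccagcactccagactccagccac
The letters begin at -80 in Ccl20, and at -89 and -71 in Cxcl1. The promoter of Ccl20 also holds AGAACA, at -65.

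Part of the proliferation genes fell with induction. Of 33 tested cell cycle genes 16 fell and none rose (median -0.97), and 13 of them were called in all 6 fits without 1 array. Mki67, the marker of cycling cells, was at 0.45, 0.41 and 0.35 on induced arrays, against 1.57, 1.96 and 1.77 on uninduced arrays (change -1.36, SE 0.10, adjusted p = 0.000202). The cyclin genes Ccna2 (-1.69, SE 0.14) and Ccnb1 (-1.52, SE 0.10), the separase gene Espl1 (-1.88, SE 0.15) and the checkpoint kinase gene Bub1 (-1.74, SE 0.16; above background on 2 of 3 induced arrays) fell. Many changes lay near 2-fold, and normexp background correction left 9 lower. Uninduced cells were themselves far below day 0, where Mki67 averaged 4.62, against means of 0.40 with induction and 1.77 without it. Among 23 tested p53 targets and cell cycle inhibitors, the inhibitor gene Cdkn2d rose and Cdkn2b (-1.41), Gdf15 (-2.18) and Perp (-1.66) fell. Cdkn1a, the inhibitor p21, did not pass (0.29, SE 0.10). The call of Perp was lost without induced replicate 2 (-1.59) or 3 (-1.55) and without uninduced replicate 3 (-1.74).

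Targets of YAP and TEAD, effectors of the Hippo pathway that respond to cell shape and stiffness, fell in 9 of 20 tested cases, and none rose (median -0.85). Cyr61, a secreted matrix protein, was at 1.17, 1.27 and 0.37 with induction and at 4.38, 3.71 and 4.20 without it (change -3.16, SE 0.26, adjusted p = 0.000262). Ankrd1, a nuclear cofactor, was at 4.27, 4.11 and 3.85 on induced arrays and at 6.47, 6.21 and 6.39 on uninduced arrays. Ctgf (-1.44, SE 0.17), Thbs1 (-3.87, SE 0.27) and the clotting initiator F3 (-2.15, SE 0.24) fell, and the growth factor Areg was at least 7.90-fold lower. Of 14 tested TGF-beta targets 4 fell and 1 rose. The ligand Tgfb2 was at 1.09, 0.94 and 0.81 with induction and at 3.06, 2.62 and 3.12 without it, and the feedback inhibitor Smad7 changed by -1.44 (SE 0.23).

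Measured in both groups and low with induction were further the guidance factor Sema3c (-4.47, SE 0.37), Slc4a11 (-4.02), the metalloproteinase inhibitor Timp3 (-3.78), Ctla2a (-3.75), Alpl (-3.75), Nrk (-3.71), Dpysl3 (-3.66) and Gm10639 (-3.65). Alpl, an alkaline phosphatase, had a second probe with a change of only -0.67. The call of Nrk was lost without induced replicate 1 (-3.29) or 2 (-3.52) or uninduced replicate 3 (-3.25), and that of Gm10639 without induced replicate 1 (-3.60) or uninduced replicate 1 (-3.12) or 3 (-3.67). Among genes above background on no induced array, Clca3b was at least 26.3-fold, Vnn3 at least 15.4-fold, the guanine nucleotide exchange factor Rasgrp3 at least 13.1-fold and the chemokine Pf4 at least 11.3-fold lower. The growth factor Bmp6, which controls hepcidin in liver, was at least 11.0-fold lower and the laminin chain Lama1 at least 9.61-fold lower.

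**Figure D4:**
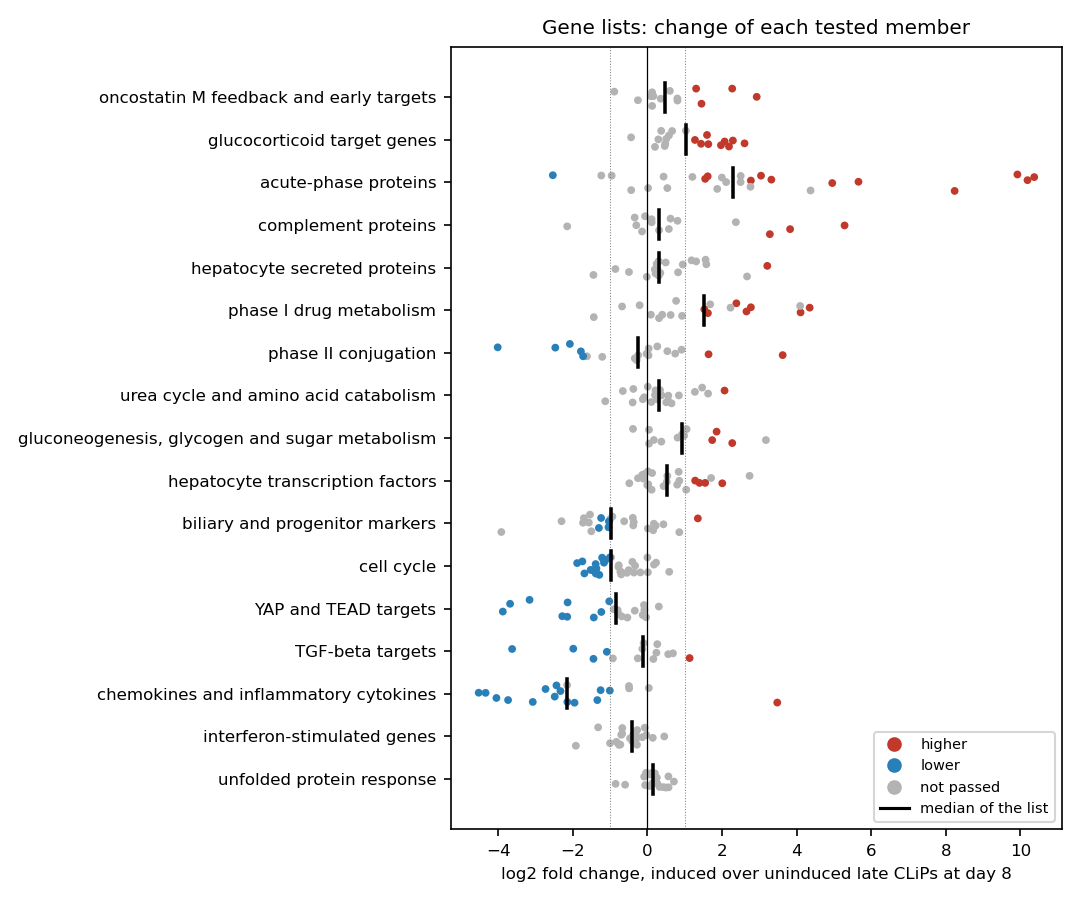
Each point is a tested member of a gene list, placed by its log2 fold change of late induced over uninduced CLiPs at day 8 (x axis), with red for higher, blue for lower and grey for not passed. Black bars are list medians, which run from -2.15 for chemokines and cytokines to 2.31 for acute-phase proteins.

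The remaining lists had between 0 and 4 called members each, in a comparison that called 6.03% of all tested genes. None of 20 tested genes of the unfolded protein response (median 0.15) and none of 21 interferon-stimulated genes (median -0.40) passed. For lists of this size 0 calls is not far from the share of all genes. In the interferon list the replicates disagreed, with pair medians of -0.33, -1.60 and 0.34. Ifit1 was at 2.96, -0.22 and 3.72 on induced arrays and at 2.68, 1.67 and 2.30 on uninduced arrays, so induced replicate 2 stood low. Of 16 NRF2 targets 1 rose and 2 fell, and of 16 clock genes 2 rose and 2 fell. The clock-linked repressor Nfil3 was at 4.01, 4.01 and 3.94 with induction and at 2.47, 2.30 and 2.50 without it, and the clock output factor Dbp at -0.30, -0.20 and -0.13 and at 1.55, 1.27 and 1.13. Vim, a filament of mesenchymal cells, did not pass (-0.10, SE 0.14). Of 12 mesenchymal genes 3 rose, and none of the 3 was called in all 6 fits without 1 array. Of 11 Wnt feedback and pericentral genes Glul and Lgr5 rose and the glutamate transporter Slc1a2 fell, and of 17 epithelial genes 1 fell. Of 4 tested mesothelial genes Wt1, a transcription factor, rose and Gpm6a fell (list median -1.18). With genes not above background in a group set to their bounds, that median was -0.505. Gpm6a was above background on no induced array and at least 1.55-fold lower, a bound under 2-fold. Wt1 was above background on 1 of 3 uninduced arrays, and its call (3.43, adjusted p = 0.0412) was lost when any 1 array but uninduced replicate 3 was left out (2.65 to 3.63). None of 4 endothelial or 2 lymphocyte genes tested passed.

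The same contrast in P1 CLiPs, with 3 induced and 3 uninduced arrays at day 8, gave other values for many of these genes. The difference of the induction effects, late minus P1, was fitted on all 21 arrays and passed in 1071 genes that responded more positively in late CLiPs (5.01% of 21370) and in 1109 that responded more negatively (5.19%). Late and P1 arrays were scanned and read out with different instruments and software versions. The day-8 arrays of each set lay on 2 slides, split unevenly between induced and uninduced arrays. The part of these in the differences was not tested. Saa1 and Saa2 differed most among genes measured on all 12 day-8 arrays. Saa1 was at 2.31, 0.76 and 3.19 on late induced and 4.01, 2.205 and 3.75 on late uninduced arrays, against 8.62, 8.35 and 9.21 on P1 induced and 0.76, 1.28 and 1.58 on P1 uninduced arrays. Its effects were -1.23 in late and 7.52 in P1 CLiPs, a difference of -8.76 (SE 0.69, adjusted p = 8.87e-07).

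Other genes with a lower response in late CLiPs were Saa2 (2.00 in late, 8.41 in P1), Saa3 (-2.53 and 2.90), the fibrinolysis inhibitor gene Cpb2 (1.55 and 7.53), the bile acid ligase gene Slc27a5 (1.44 and 6.66) and the cystathionine lyase gene Cth (-1.13 and 4.46). Tat (0.20 and 3.00, difference -2.79, SE 0.32) belonged here too. In the other direction Glod5 changed by 5.57 in late and -0.32 in P1 CLiPs, where its uninduced level was already high, at 3.83, 3.17 and 4.34. Igf2 (3.00 in late, -1.25 in P1), Meg3 (1.25 and -3.88), the RNA sensor gene Tlr3 (-0.10 and -4.52), Tspan8 (-0.73 and -4.49) and Gxylt2 (-2.01 and -5.78) were the others at that end. Fkbp5 changed by 2.19 in late and 2.21 in P1 CLiPs (difference -0.02, SE 0.24) and Socs3 by 2.93 and 3.73 (difference -0.80, SE 0.55), and neither difference passed. Ccl20 changed by -4.52 and -4.59, and Serpina3n by 8.24 and 6.22 (difference 2.02, SE 0.61, adjusted p = 0.0282).

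Counted by list, the difference was unevenly placed. In the urea cycle and amino acid list 21 of 30 genes responded less in late CLiPs and none more, with medians of 0.44 in late and 2.59 in P1. In cholesterol synthesis 17 of 23 did (medians 0.15 and 1.34), and in the acute-phase list 16 of 29 responded less and 4 more (medians 2.11 and 3.85). In the list of glucocorticoid targets 3 of 20 responded less and none more (medians 1.06 and 1.28). Among the oncostatin M feedback and early targets 4 of 14 responded less and 1 more (medians 0.48 and 1.47), and none of 12 genes of its receptors and their signalling passed. Of chemokines and cytokines 6 of 20 went each way (medians -2.15 and -2.08). Biliary and progenitor genes were less lowered in late CLiPs in 7 of 24 cases and none more (medians -0.97 and -2.20). These counts describe the lists, whose tested members here include genes above background in either passage set. A gene at background in late CLiPs can show little change there, so its lower response is partly set by this choice. Of the urea cycle and amino acid list 22 genes were tested in late CLiPs alone, against 30 here, and of cholesterol synthesis 23 in both. Over all tested genes 5.01% responded more positively and 5.19% more negatively in late CLiPs.

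**Figure D5:**
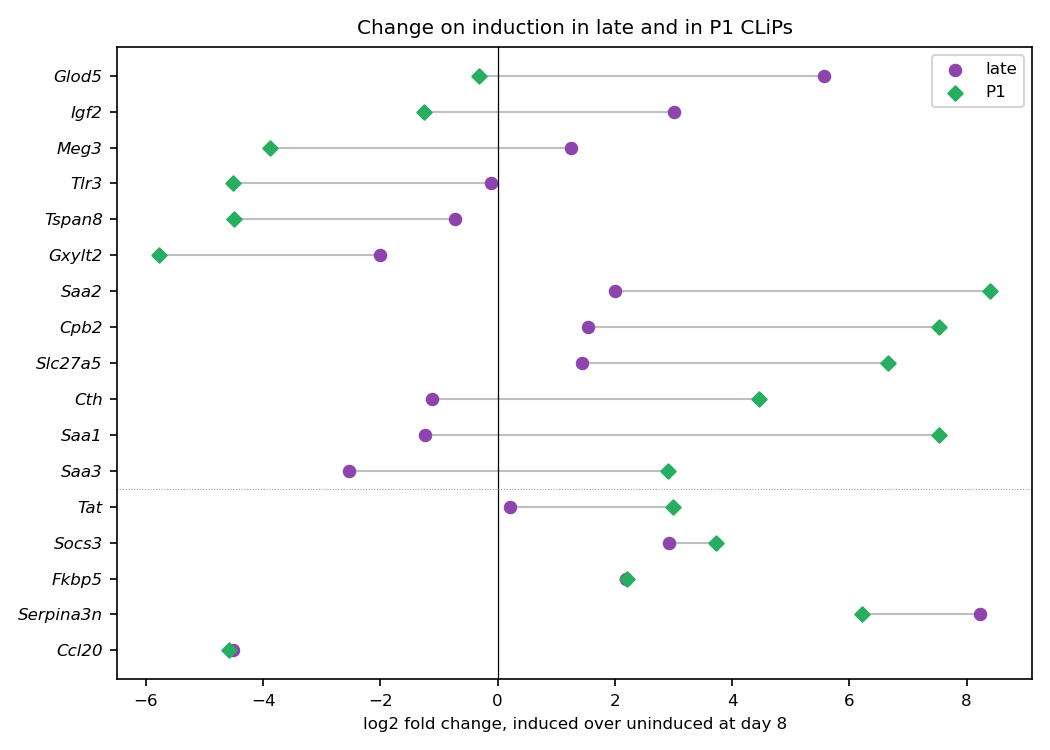
The log2 fold change of induced over uninduced CLiPs at day 8 (x axis) is plotted for late (purple circles) and P1 (green diamonds) CLiPs, joined by a grey line per gene. The upper 12 genes are the 6 with the most positive and the 6 with the most negative late minus P1 difference among genes measured on all 12 arrays, and the lower 5 are members described in the text, of which Fkbp5 and Ccl20 nearly coincide.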

How the data were processed

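RNA of 21 samples was hybridised to one-colour Agilent arrays labelled with Cy3. The deposited scanner files hold spot intensities that, per the file headers, Agilent Feature Extraction background-subtracted and detrended within each array (version 10.7.3.1 for the late arrays, 11.5.1.1 for the others). The authors' deposited table holds log2 values of 40786 probes. After a shift of at most 0.00367 per array, 100% of its differences matched the scaled scanner values within 0.01, so it holds the same values centred per probe. The sources used here do not say how its probes were picked.

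Signals were taken as log2, scaled by subtracting each array's 75th percentile, and fitted with limma 3.58.1 (lmFit and eBayes, R 4.3.3) on the 9 late arrays, without a block, and the late minus P1 difference on all 21 arrays. Spots flagged as outliers were left out, replicate spots averaged, and the brightest probe on the late arrays stood for a gene. Late files carry no gene names, which were taken by probe name from the other scanner files. Of the arrays' 37074 gene names, 11876 had several probes. The number of arrays limits the precision. Whether replicates were separate cultures or animals is not in the labels, so the spread behind each p-value may be technical in part. On late arrays it also holds a difference of passage, as replicate 3 was at passage 11.

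Replicate numbers of the titles paired the samples. Deviations from the group means correlated at 0.45, 0.59 and 0.59 for equal numbers and at -0.45 to -0.04 for unequal ones. Such deviations cancel within a group, so positive values for equal numbers bring negative ones for unequal numbers. Replicate 3 also differed in passage in both groups. A fit with the number as a block was therefore run beside the main one.

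Members, 36 gene lists, motifs and the naming rule were chosen with earlier results of these data known. The rule names 12 called genes at either end of the changes among those above background on all 6 arrays, 6 at either end by bound, a core of 26 genes, up to 6 called genes and 3 others per list, and the 6 genes at either end of the late minus P1 difference. Further genes in the text (Lcn2, Orm1, F2, Ifit1 and other list members) were chosen after their values were seen. Some genes that the rule names are not reported here. Alternatives covered background correction, normalization, the filter on dim probes, the probe summary, the slide, the passage, the arrays in the fit and the source of the values. The fit was tested on simulated data.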

Additional observations from a re-analysis of the deposited data

Results flagged for a closer look

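The results here are differences between the induction effects of late and P1 CLiPs (late minus P1, log2 scale), each past the test of that difference in limma. The difference was positive in 1071 genes and negative in 1109 genes.

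The most negative differences measured on all 12 day-8 arrays were -8.76 for Saa1, -6.41 for Saa2, -5.99 for Cpb2, -5.59 for Cth, -5.44 for Saa3 and -5.23 for Slc27a5. Among the core genes, Tat differed by -2.79 and Cps1 by -1.945. Only 1 of 3 late uninduced arrays had Cps1 above background, so the size of its difference is not well measured. The most positive differences were 5.89 for Glod5, 5.13 for Meg3, 4.42 for Tlr3, 4.25 for Igf2, 3.77 for Gxylt2 and 3.76 for Tspan8. Afp, whose levels overlapped between late induced and uninduced arrays, differed by 1.63, with effects of -1.35 in late and -2.98 in P1 CLiPs. Late and P1 arrays also differ in scanner and software version, whose part in these differences was not tested.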

How the results depend on the processing

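No named gene called in the main fit reversed its direction under any alternative run. Other genes and the list medians were not checked for reversal. Within the slide of 8 late arrays 10 of 36 list medians moved by at least the standard deviation of their pair medians. The count of higher genes (622) was 479 to 695 over all alternatives with all 6 arrays or with passage 12 alone, and 511 to 632 without 1 array. The count of lower genes (630) was 463 to 737, apart from 394 under normexp background correction and 417 under normexp with the replicate block, and 527 to 620 without 1 array. The cause was not tested. Normexp and quantile normalization with the replicate block were added after seeing the data. The replicate block gave 695 higher and 709 lower genes. Of 155 named genes it ended the call of Afp and Bhlhe41 and made that of G6pc, Krt7 and Epcam, and it changed no other call among them. It raised the count of lower biliary and progenitor genes to 11, against 4 without it. The late minus P1 counts were 1071 and 1109, and with the replicate block 1316 and 1219. Acute-phase genes higher numbered 6 of 20 tested, against 11 of 26, when a gene had to be well above background on all 6 arrays. Dim genes carry bounds only, and 61 of the higher genes were at background without induction and 90 of the lower genes at background with it.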
